A study of Mus musculus with 12 samples.

Results

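The genes of mouse chromosome 7 were described in clone F5, an Aebp1 knockout derivative of the NIH3T3 fibroblast line, beside the parental line and 2 further knockout clones, G5 and H7. A member is a gene annotated on chromosome 7 with a mean of at least 4 CPM (a gene's read count scaled by the library's total) over all 12 libraries. Of 4689 chromosome 7 genes in the count table, 3891 were below that level, 6 of the 10 imprinted genes that the rule leaves out were above it, and 792 were members, of 48795 genes in all. Every member passed the filter on low counts and was tested, and no member was at 0 counts throughout a line. Just below the level stood Usp35 (mean 3.95 CPM, log2 change in F5 against parental of -0.02) and Htra1 (3.95 CPM, 2.40), and just above it Ctf1 (4.02 CPM, 0.11) and Tmem80 (4.06 CPM, 0.00). Within the members, a lowered segment was selected on their change in F5 against parental by position, in bins of 10 Mb, so the F5 values below describe the choice and are not tested.

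Genes that are neighbours on a chromosome share its copy number, and often its replication timing and its large-scale chromatin state. Their transcript levels can therefore be compared as a block as well as one by one. Immortalised lines such as NIH3T3, which comes from mouse embryo fibroblasts, carry abnormal chromosome numbers, and each clone taken from such a line descends from a single cell. Mouse chromosome 7 has its centromere at the start of its coordinates and holds large clusters of zinc finger genes, which mostly encode DNA-binding repressors. DNA was not measured in the data used here.

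All 12 libraries came from NIH3T3 cells grown in DMEM/F12 with serum, and total RNA was depleted of ribosomal RNA before sequencing. The parental cells are labelled wild type, at passages 6, 7 and 8. The clones F5, G5 and H7 each carry the AEBP1 KO genotype and were taken at passages 7, 8 and 9, so each knockout line is 1 clone. Samples of a line are successive passages, so p-values measure the spread between those passages, which may be technical. Counts per library summed to between 22088714 and 31329755. Aebp1 itself stood at 612.8, 466.6 and 579.2 CPM in the parental libraries in order of passage, at 214.3, 175.1 and 189.6 in F5, at 138.1, 124.2 and 122.8 in G5 and at 157.9, 130.9 and 153.2 in H7. No clone library overlapped the parental range, and Aebp1 was lower in G5 (adjusted p = 9.2e-06) and H7 (adjusted p = 3.3e-06) by edgeR's quasi-likelihood test with Benjamini-Hochberg adjustment. Of 10 fibroblast markers, 9 were at 1 CPM or more in every library, while all 4 epithelial and all 3 endothelial markers were below 1 CPM throughout. Of 4 leukocyte markers, 1 was at 1 CPM or more, and their summed level lay between 3.22 and 5.40 CPM.

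Promoter sequences from RefSeq (build GRCm38.p6, 250 bases before to 50 after each start) were found for 643 of the 792 members. The first pair below stands on either side of the distal edge of the lowered segment described next. The promoter of 4632427E13Rik, a long non-coding RNA, at chr7:92741410-92741709 on the minus strand, spans the annotated start of the last gene inside, Rab30 (plus strand, chr7:92741603-92844535), which encodes a Golgi GTPase. The promoter of Ddias (DNA damage-induced apoptosis suppressor), at chr7:92874198-92874497 on the minus strand, belongs to the first gene outside (chr7:92857525-92874247) and spans the annotated start of the next, Prcp. The second pair comes from the 2 gene families described below both inside and outside the segment: Zfp146, a zinc finger gene, at chr7:30169692-30169991, and Rpl13a, a ribosomal protein gene, at chr7:45128696-45128995, both on the minus strand. Capitals mark matches on either strand to CCAAT (the box bound by NF-Y), to GGGCGG (the site bound by SP1) and to TATAAA (a core promoter element), and the sequences read 5′ to 3′ along each gene.
4632427E13Rik: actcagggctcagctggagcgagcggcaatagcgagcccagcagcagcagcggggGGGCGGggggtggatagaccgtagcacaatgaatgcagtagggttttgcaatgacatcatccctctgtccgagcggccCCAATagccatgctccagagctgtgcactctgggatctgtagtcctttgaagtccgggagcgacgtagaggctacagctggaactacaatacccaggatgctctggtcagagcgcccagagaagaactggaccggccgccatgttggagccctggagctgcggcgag
Ddias: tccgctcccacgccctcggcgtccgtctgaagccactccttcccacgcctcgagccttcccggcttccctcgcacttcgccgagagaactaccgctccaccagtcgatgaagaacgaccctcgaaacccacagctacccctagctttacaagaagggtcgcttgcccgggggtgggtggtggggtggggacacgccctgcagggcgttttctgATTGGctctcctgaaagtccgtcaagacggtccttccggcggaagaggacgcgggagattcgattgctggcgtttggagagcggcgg
Zfp146: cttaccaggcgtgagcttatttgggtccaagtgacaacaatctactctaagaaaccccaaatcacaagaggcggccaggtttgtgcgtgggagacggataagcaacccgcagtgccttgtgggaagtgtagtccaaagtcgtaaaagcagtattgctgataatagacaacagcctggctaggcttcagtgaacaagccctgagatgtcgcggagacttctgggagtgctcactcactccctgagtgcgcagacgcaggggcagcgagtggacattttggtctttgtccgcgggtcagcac
Rpl13a: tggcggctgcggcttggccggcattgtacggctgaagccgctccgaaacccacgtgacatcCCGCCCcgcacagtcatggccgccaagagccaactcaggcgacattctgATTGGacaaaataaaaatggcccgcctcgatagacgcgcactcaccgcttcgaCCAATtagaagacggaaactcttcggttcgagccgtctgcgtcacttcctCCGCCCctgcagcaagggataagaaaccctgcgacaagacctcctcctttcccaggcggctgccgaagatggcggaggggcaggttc

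CCAAT was found in 169 of the 392 promoters matched to segment members (43.1%), in 39.0% of 251 promoters of members outside and in 37.4% of all 32841 entries of the table. GGGCGG was in 68.4% of segment promoters and 65.3% of those outside, against 35.7% of all entries, and TATAAA in 6.12% and 5.58%, against 13.6%. Median GC content was 59.0% in segment promoters and 61.0% in the others. The printed promoters fall on both sides of these shares: Rpl13a holds 2 matches each to CCAAT and GGGCGG, and Zfp146 holds none of the 3 motifs.

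In F5, members were lower than in parental cells along the first 9 of 15 bins and near parental levels along the remaining 6. Medians of log2 change in the 9 lowered bins ran from -0.39 to -0.23, and in the other 6 from -0.048 to 0.079. In bulk libraries, fewer cells with a given level and a lower level in every cell cannot be told apart. A bin counted as lowered where its median, less the median of 9696 genes of at least 4 CPM on the 18 other autosomes (0.012), was -0.2 or below. The lowered bin nearest that limit was the fourth (30 to 40 Mb, 54 members, -0.24), and the bin just beyond the run (90 to 100 Mb, 42 members) was at -0.060.

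The bins were alike in each F5 library taken alone. Relative to the parental mean, medians in the 9 lowered bins lay between -0.42 and -0.21 at passage 7, between -0.41 and -0.21 at passage 8 and between -0.40 and -0.19 at passage 9. In the other 6 bins the same libraries lay between -0.061 and 0.097. The parental libraries themselves spread between -0.061 and 0.10 over all bins, and no lowered-bin median of an F5 library entered that range.

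**Figure D1:**
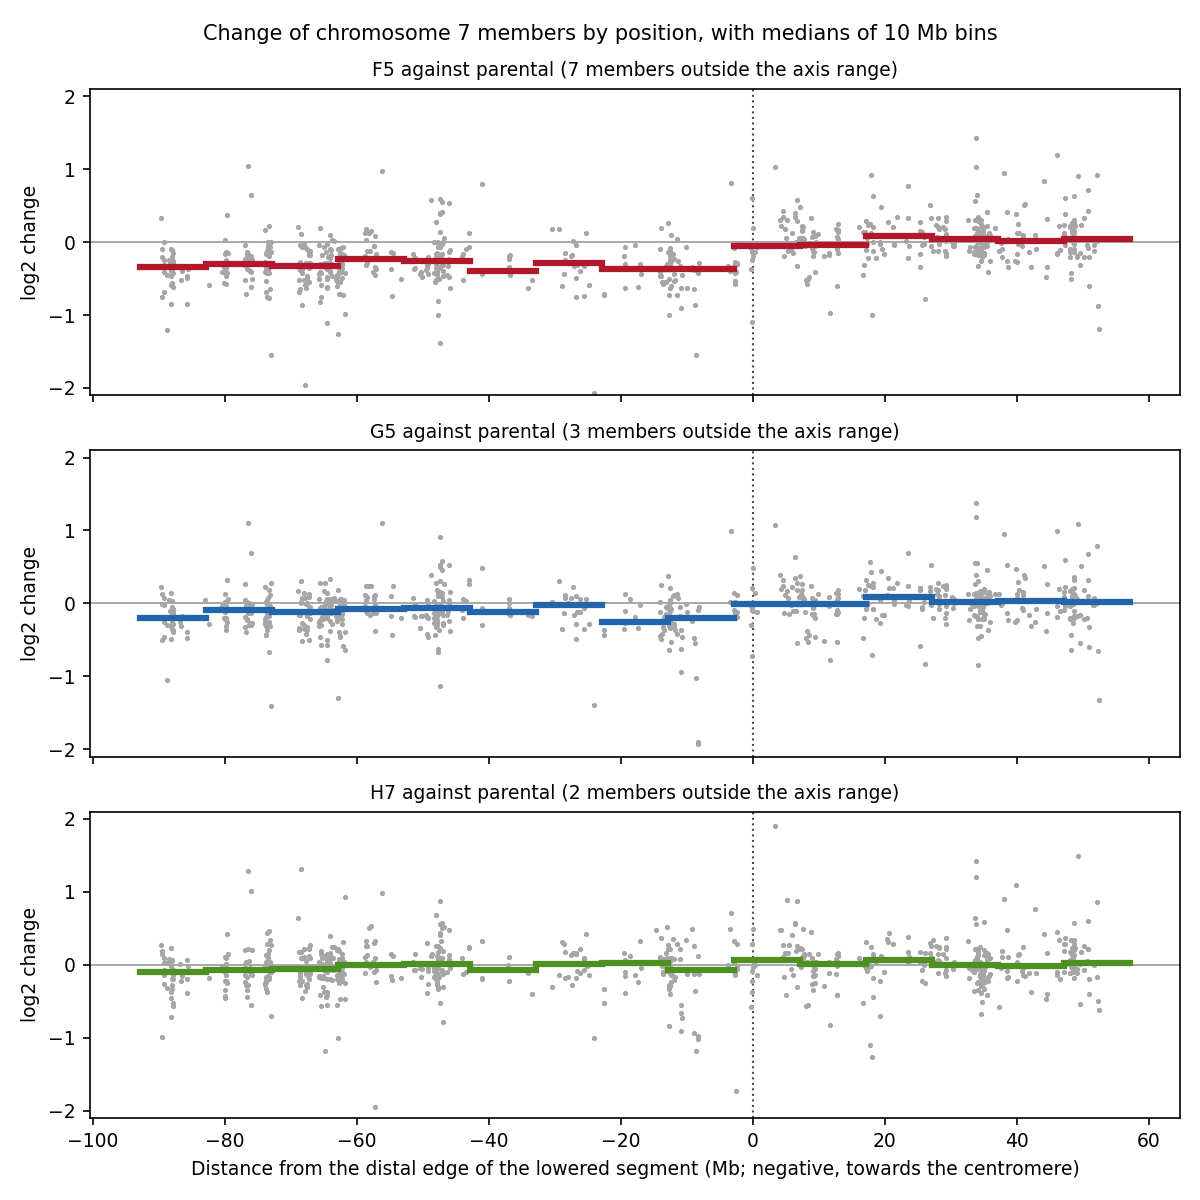
Log2 change of each chromosome 7 member (grey points) against its distance in Mb from the distal edge of the lowered segment, for F5, G5 and H7 against parental, with the median of each 10 Mb bin as a coloured bar. The F5 bars sit between -0.39 and -0.23 over the first 9 bins and between -0.048 and 0.079 beyond them, and 7 members in F5, 3 in G5 and 2 in H7 lie beyond the axis range.

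Placed between genes, the segment ran from Myadm, a membrane protein gene, to Rab30 and held 479 members. Its last base was at 92844535, and the next member, Ddias, began 12990 bases further on. A single pseudogene member, Gm3375, lay before Myadm, and 312 members lay distal of the edge. The edge was not sharp gene by gene. Just inside it, Pcf11 (a factor of transcript cleavage) stood at 90.7% of its parental level in F5 and Ankrd42 at 77.6%, and just outside it Prcp (a lysosomal carboxypeptidase) stood at 87.9%. Ddias stood at 114% and Tenm4, a large neuronal adhesion gene, at 204%. Rab30 ranged from 7.78 to 19.8 CPM among the parental libraries and from 4.02 to 7.72 in F5, so the lines nearly met.

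Computed from 1 F5 library at a time, the last gene inside was Gm45038 at passage 7 (ending at 93526897), Crebzf at passage 8 (ending at 90447994) and Rab30 at passage 9. Without the parental library of passage 7 it was again Crebzf. On the proximal side the first gene inside was Myadm, or Cacng7 when F5 passage 7 was used alone, and Myadm stood at 87.0% of parental in F5.

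Over the 479 segment members, the median log2 change in F5 was -0.32, or 80.2% of parental, with an interquartile range of -0.45 to -0.17. Of these members, 434 (90.6%) were below 0, 100 below -0.5 and 16 below -1, while 45 were above 0. The 312 distal members had a median of 0.037, and the other autosomes of 0.012. The edgeR test called 240 of all members in F5, beside 14.3% of all 14704 genes tested. In the segment it called 194 lower and 8 higher, beside 7.37% lower and 6.88% higher of all genes tested, and since this contrast placed the segment, nothing is read from these counts. Without F5 passage 7, 8 or 9 the count of 240 was 145, 158 or 151, and with the place of each library in its line's order of passages as a block it was 388. For such alternative fits, here and below, the share of all genes called is not given, so their counts have no background beside them. Every F5 library was below every parental library in 261 members (54.5%), beside 13.8% of genes on the other autosomes, and above every parental library in 13 (2.71%, beside 17.2%).

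**Figure D2:**
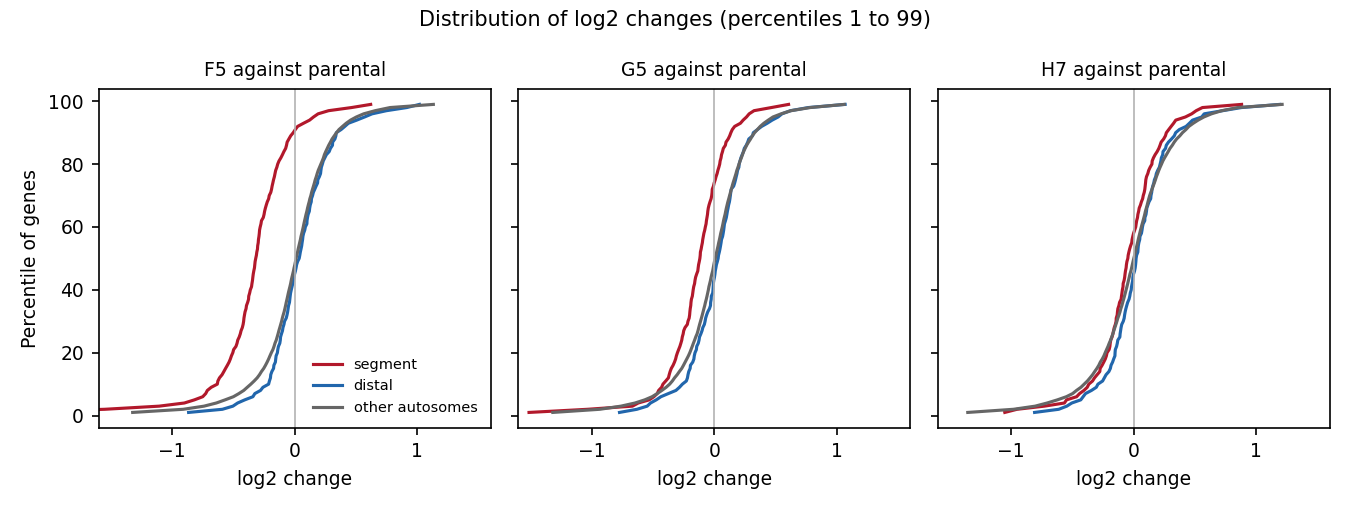
Percentiles 1 to 99 of log2 change against parental in F5, G5 and H7 for segment members, distal members and genes of at least 4 CPM on other autosomes. The segment curve is displaced to the left along most of its length in F5 (median -0.32), less in G5 (-0.12) and least in H7 (-0.048).

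In summed expression, the segment was compared with the distal members of the same chromosome in the same library. The ratio of summed CPM (scaled by TMM, edgeR's trimmed mean of M-values) was 1.677, 1.732 and 1.741 in the parental libraries at passages 6, 7 and 8. It was 1.343, 1.355 and 1.346 in F5 at passages 7, 8 and 9, 1.526, 1.551 and 1.497 in G5, and 1.648, 1.645 and 1.637 in H7. The lines did not overlap and ordered as F5, G5, H7 and parental from low to high. As means the ratios were 1.717 ± 0.0347, 1.348 ± 0.00594, 1.525 ± 0.0273 and 1.643 ± 0.00559 (SD, n = 3) in parental, F5, G5 and H7. By this ratio F5 stood at 78.5%, G5 at 88.8% and H7 at 95.7% of parental. The segment's summed CPM alone was at 84.3% of parental in F5. The distal sum was higher there, at a mean of 19565 CPM against 18231 in parental. In TPM the segment summed to a mean of 28277 in F5 and 30726 in parental.

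The rule did not use G5 or H7, so their ratios were tested. It did use the parental libraries, so the tests against parental are not independent of the choice of the segment. Only G5 against H7 holds no library that placed it. Each of G5 against parental, H7 against parental and G5 against H7 gave p = 0.1 by an exact two-sided permutation test over libraries, the smallest p that 3 against 3 libraries allow, and 0.12 after Benjamini-Hochberg adjustment over 12 such tests. The log2 differences were -0.17 in G5 and -0.063 in H7 against parental, and -0.11 in G5 against H7. The ratio has a numerator and a denominator that both differed. The segment's summed CPM alone differed from parental by -0.080 in G5 (exact permutation p = 0.1) and by 0.003 in H7 (exact permutation p = 0.9), while the summed distal members differed by 0.092 in G5 and 0.066 in H7 (exact permutation p = 0.1 for both). In deposited TPM the ratio was 2.01 to 2.16 in parental, 2.05 to 2.11 in H7, 1.93 to 1.97 in G5 and 1.72 to 1.74 in F5. On this scale H7 overlapped parental, and the summed TPM of the segment was 0.070 above parental in G5.

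**Figure D3:**
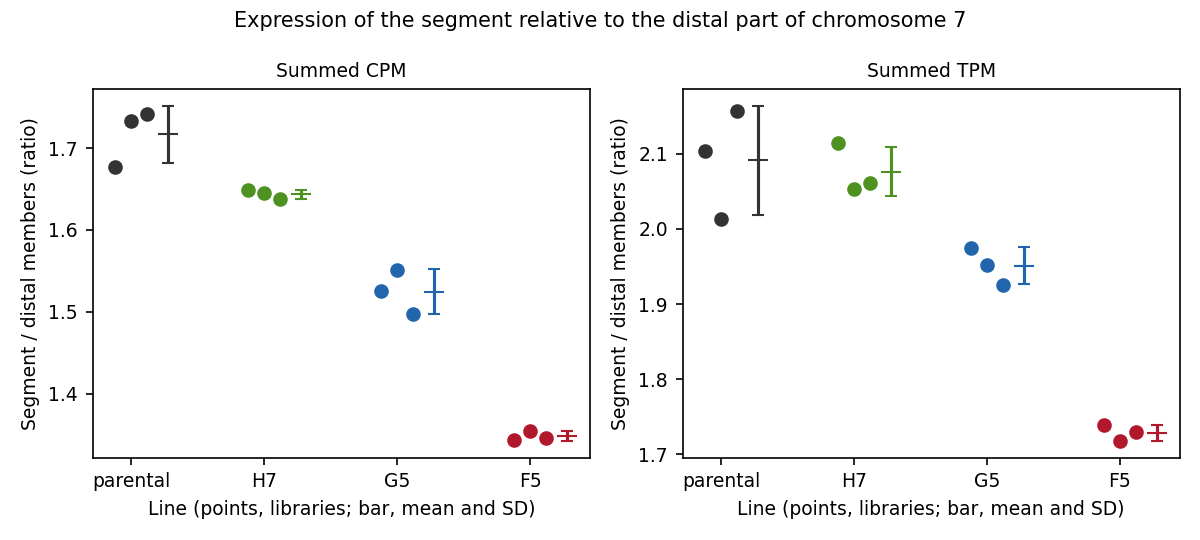
Ratio of the summed level of segment members to that of distal members in each library, in CPM (left) and in TPM (right), with points for libraries and a bar for the mean and SD of each line (n = 3). F5 libraries sit lowest, at 1.343 to 1.355 in CPM and 1.72 to 1.74 in TPM, and the H7 libraries sit below parental in CPM but among them in TPM. The vertical axes do not start at 0.

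Genes named Zfp in the segment were lower in F5 as a body. Zinc finger genes with other names, such as Bnc1 and Tshz3, are not counted here and are described further below. All 57 members named Zfp in the segment had log2 changes below 0, with a median of -0.41. The 11 Zfp members elsewhere on chromosome 7 had a median of -0.02, and 208 Zfp genes on other autosomes of -0.03. Zfp146 stood at 63.0, 60.3 and 58.2 CPM in the parental libraries, at 44.2, 46.0 and 45.6 in F5, at 53.9, 53.3 and 55.9 in G5 and at 56.3, 56.6 and 58.2 in H7. Its F5 libraries lay well below all others, at 74.8% of parental. Zfp592 stood at 69.6% of parental in F5, Zfp865 at 84.0% and Zfp507 at 88.9%.

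In the segment's Zfp members, medians were -0.19 in G5, with 53 of 57 below 0, and -0.13 in H7, with 47 below 0. The edgeR test called 7 of the 57 lower in G5, beside 6.56% of all genes tested, and 6 in H7, beside 9.92%, so the H7 count was near the background. The Zfp genes of other autosomes had medians of 0.00 in G5 and -0.06 in H7, and the 11 elsewhere on chromosome 7 had -0.05 and -0.16. By these medians the segment's Zfp members stood below the Zfp genes elsewhere in F5 and G5, and in H7 they stood near the other Zfp members of chromosome 7. On the TPM scale (pseudocount 0.1) the 11 in G5 were at 0.02 and the 208 on other autosomes at 0.06. The other directions were kept.

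Ribosomal protein genes, which encode the structural proteins of the ribosome, stood lower inside the segment than outside it, from a higher general level. The 60 cytosolic ribosomal protein genes on other autosomes had a median log2 change of 0.30 in F5 and the 5 on the rest of chromosome 7 of 0.28, while the 9 in the segment had -0.01 (0.02 in TPM). Rpl13a stood at 599, 504 and 531 CPM in parental, 531, 562 and 543 in F5, 606, 613 and 575 in G5 and 622, 620.1 and 596 in H7. Its F5 libraries fell within the parental range. Rpl18 and Rps19 in F5 stood at 98.5% and 99.2% of parental. In G5 the medians were 0.13 in the segment and 0.21 on other autosomes, and in H7 both were 0.10. Ribosomal protein genes share reads with processed pseudogenes, so single values are uncertain.

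**Figure D4:**
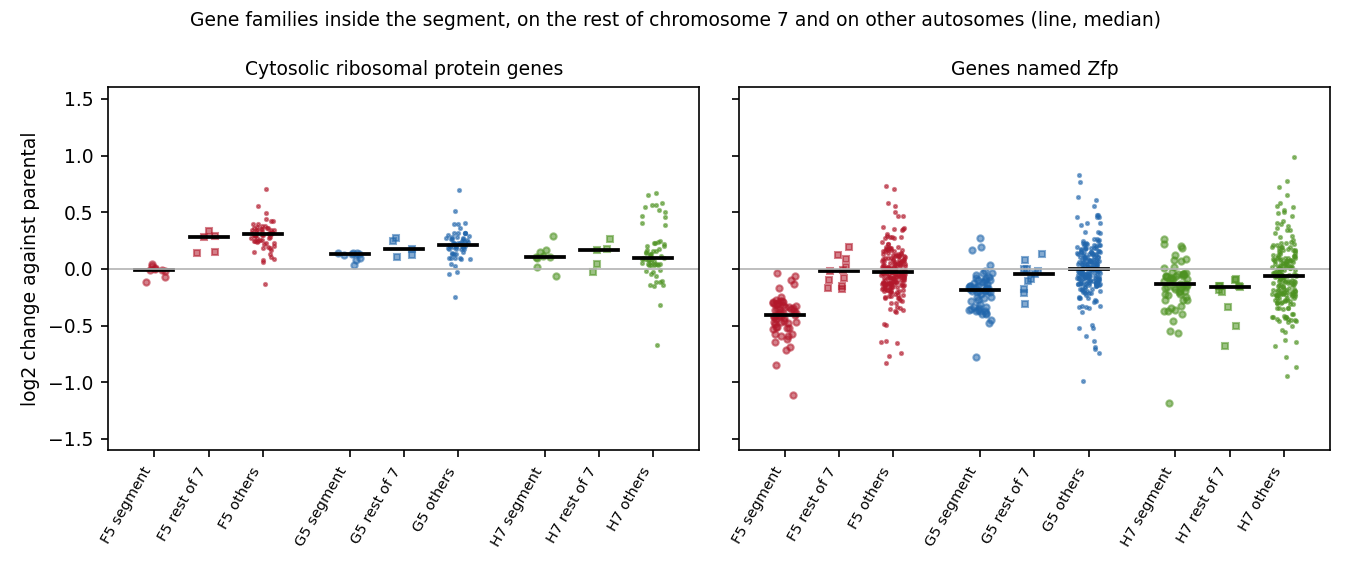
Log2 change against parental of cytosolic ribosomal protein genes (left) and genes named Zfp (right) in F5, G5 and H7, for the segment, the rest of chromosome 7 and the other autosomes, with a line at each median. In F5 both families sit lower inside the segment than outside it, at -0.01 against 0.30 and at -0.41 against -0.03 on other autosomes.

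Among other transcription factors in the segment, 10 of 12 listed members were below 0 in F5, with a median of -0.45. Nr2f2 encodes COUP-TFII, an orphan nuclear receptor of mesenchymal cells. It stood at 530.3, 499 and 577 CPM in parental, 302, 341 and 340.4 in F5, 400.3, 417 and 434 in G5 and 430.3, 419 and 423 in H7. Its F5 libraries were lowest, and G5 and H7 both lay between F5 and parental and overlapped each other. Nr2f2 fell in G5 (-0.36 ± 0.073 SE, edgeR adjusted p = 0.0084) and in H7 (-0.34 ± 0.073 SE, edgeR adjusted p = 0.0079). Trim28, a co-repressor recruited by zinc finger proteins, stood at 84.7% of parental in F5. Atf5, a stress-response factor, stood at 121% in F5 and rose in H7 (0.68, edgeR adjusted p = 0.0081). The 4 listed factors on the rest of the chromosome had a median of 0.12 in F5.

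Zfp36 encodes tristetraprolin, which speeds the decay of AU-rich transcripts. It stood at 36.6, 34.7 and 30.8 CPM in parental, 14.6, 16.1 and 16.4 in F5, 19.9, 19.5 and 20.1 in G5 and 25.5, 27.5 and 25.6 in H7. The 4 lines did not overlap, and the order was the same as for the ratio of the segment to the distal members. It fell in G5 (-0.78 ± 0.080, edgeR adjusted p = 0.00018) and in H7 (-0.37, edgeR adjusted p = 0.0072).

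Listed genes of growth factor and TGF-beta signalling in the segment stood mostly below parental in F5. Of 8 listed members, 6 were below 0 in F5, with a median of -0.25, while the 10 listed members elsewhere on the chromosome had a median of 0.06. Igf1r, the receptor of insulin-like growth factors, stood at 387, 514 and 435 CPM in parental and at 288, 310.4 and 289 in F5. F5 did not overlap parental, at 66.4%. In G5 Igf1r was at 359.6, 382 and 353, with no call (-0.29, edgeR adjusted p = 0.11). Akt2, a kinase downstream of that receptor, stood at 95.1, 103 and 95.03 CPM in parental, 78.4, 77.7 and 76.6 in F5, 88.0, 84.8 and 84.3 in G5 and 105, 94.5 and 94.0 in H7. Its F5 values were closely grouped at 79.4% of parental, near the segment's median, and the H7 libraries lay just above or just below the parental ones. Axl, a receptor tyrosine kinase, stood at 92.1% in F5, with overlapping libraries.

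Matrix and protease genes of the segment spanned its widest range. Furin, a proprotein convertase, stood at 119, 132 and 125 CPM in parental, 89.7, 74.1 and 83.5 in F5, 93.1, 82.8 and 84.5 in G5 and 106, 107 and 105 in H7. F5 and G5 overlapped, both below H7, and the G5 decrease passed the test (-0.53 ± 0.079, edgeR adjusted p = 0.0016). Chsy1, which extends chondroitin chains, was at 71.3% and Mfge8, a secreted bridging glycoprotein of the cell surface, at 68.2% of parental in F5. Rcn3, a calcium-binding protein of the secretory pathway, was at 57.4% in F5 and fell in G5 (-0.63, edgeR adjusted p = 0.0012) and H7 (-0.33, edgeR adjusted p = 0.021). Prss23, a secreted serine protease, went the other way, at 175% in F5, and rose in G5 (0.99, edgeR adjusted p = 0.0039) and H7 (0.71, edgeR adjusted p = 0.014). Its high F5 value against the same parental libraries was a reason for naming it, so these p-values are not independent of that choice.

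The members furthest below parental in F5 lay far beyond the general displacement. Anpep, the membrane aminopeptidase CD13, stood at 3.49, 15.7 and 5.05 CPM in parental, 0.306, 0.628 and 0.540 in F5, 0.424, 0.725 and 0.638 in G5 and 7.96, 11.7 and 15.1 in H7. F5 and G5 were both near the bottom of the measured range, and H7 overlapped parental. Ntrk3, a neurotrophin receptor, had the same pattern, with 4.07, 11.9 and 6.28 CPM in parental, 1.07, 1.16 and 1.47 in F5, 0.848, 1.31 and 2.15 in G5 and 8.52, 10.1 and 12.5 in H7. Eml2, a microtubule-binding protein gene, was low in F5 alone, with 5.46, 5.21 and 4.44 CPM in parental, 0.460, 1.22 and 0.579 in F5, 3.96, 8.07 and 3.63 in G5 and 6.89, 8.21 and 5.35 in H7.

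Bnc1, a zinc finger gene named basonuclin, stood at 15.6% of parental in F5, 52.0% in G5 and 68.3% in H7. Arrdc4, an arrestin-domain gene, stood at 23.8%, 38.2% and 49.9%, and fell in G5 (-1.40, edgeR adjusted p = 0.03). It was named for its low F5 value against the same parental libraries, so that p-value is not independent of the choice. Cemip, a hyaluronan-degrading protein, varied widely within lines, with 149, 1033 and 407 CPM in parental, 12.9, 103 and 33.4 in F5, 20.4, 153 and 58.0 in G5 and 112, 449 and 268 in H7. All F5 libraries were below all parental ones. The parental library of passage 7 was the highest parental one for Anpep, Ntrk3, Cemip, Bnc1 and Arrdc4, and F5 lay below the other parental libraries as well.

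**Figure D5:**
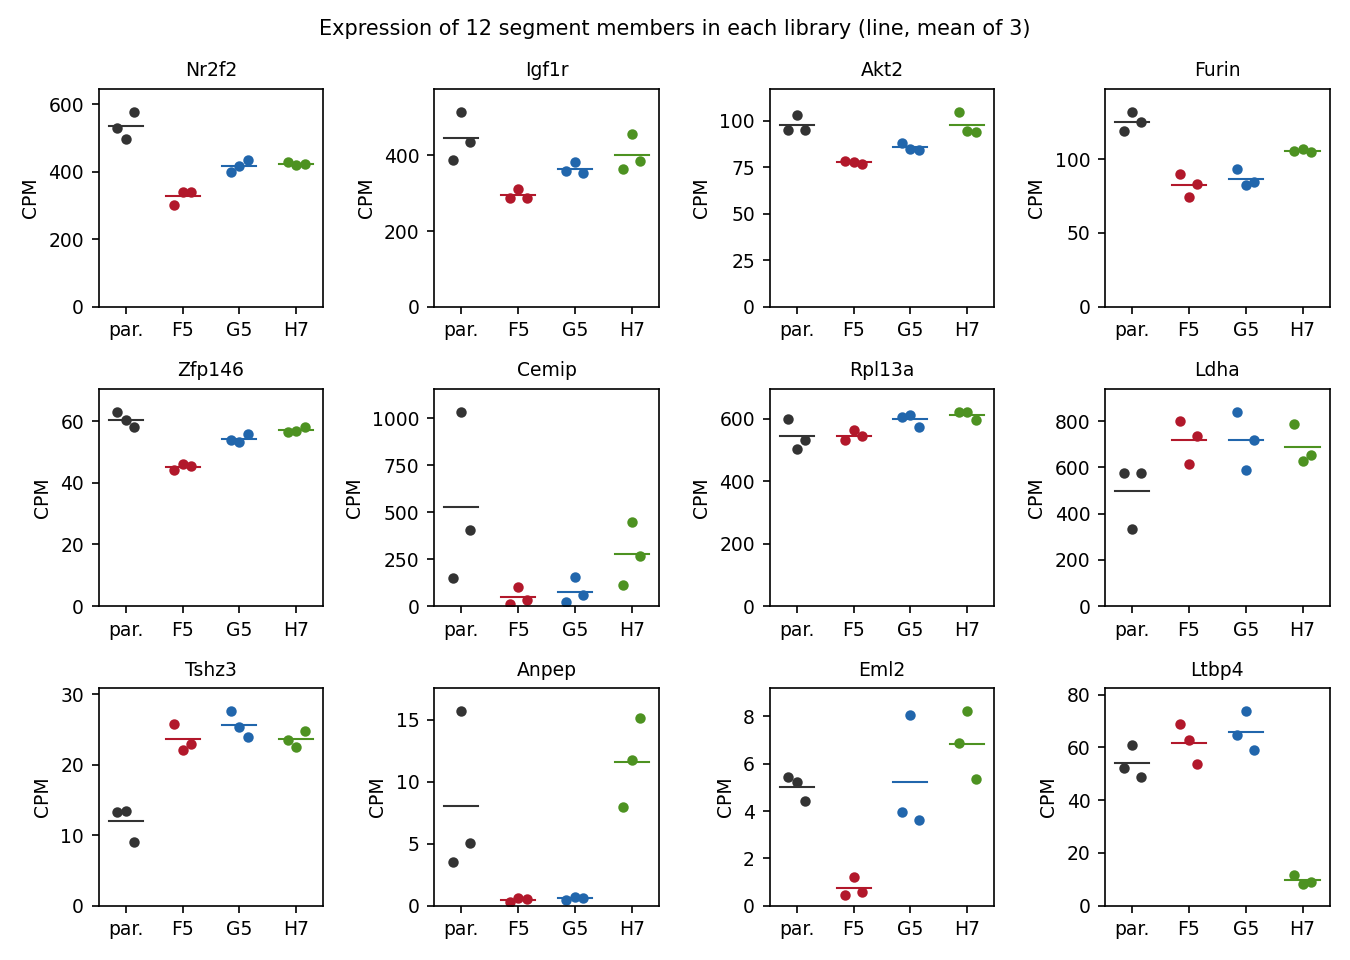
Expression in CPM of 12 segment members in each of the 12 libraries, with a line at the mean of each line of cells (n = 3) and axes from 0. Nr2f2, Igf1r, Akt2, Furin and Zfp146 are lowest or nearly so in F5, Rpl13a and Ldha are not, Anpep is near 0 in F5 and G5, Eml2 is low in F5, and Ltbp4 is low in H7.

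Metabolic genes of the segment divided. The respiratory chain members Cox6b1, Ndufa3 and Etfb had log2 changes between -0.36 and -0.31 in F5, whereas the 4 listed on the rest of the chromosome lay between 0.21 and 0.35. Idh2, the mitochondrial isocitrate dehydrogenase, was at 70.5% of parental in F5. Ldha, lactate dehydrogenase A, stood at 578, 335 and 576 CPM in parental and at 802, 614 and 735 in F5, at 144% of parental, and Gpi1, a glycolytic isomerase, was at 113%. Every clone library of both genes was above every parental one. Distal of the edge, the glycolytic Aldoa was at 157% in F5 and rose in G5 (0.55, edgeR adjusted p = 0.0043).

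Cell division and DNA repair genes stood lower inside the segment than outside it. The 12 listed in the segment were all below 0 in F5, with a median of -0.31, and the 10 on the rest of the chromosome had a median of 0.02. Prc1, which organises the central spindle, was at 81.5% of parental in F5 inside the segment, and Mki67, a proliferation marker, was at 94.1% outside it. The abundant members of other kinds also stood on either side of the segment's median. Ftl1, the light chain of ferritin, which stores iron, stood at 1156, 865 and 1267 CPM in parental, 954, 1052 and 1120.1 in F5, 1212, 1211 and 1224 in G5 and 1363, 1208 and 1271 in H7, and shares reads with pseudogenes. Actn4, a cross-linker of actin filaments, was at 88.2% of parental in F5, Iqgap1, a scaffold of the cell cortex, at 89.4%, and Akap13, an anchor of protein kinase A, at 65.3%. Akap13 was at 79.4% in G5 and did not pass the test there (edgeR adjusted p = 0.13). Actin and adhesion genes gave medians of -0.18 over 6 members inside and -0.01 over 10 outside, and the 4 translation and proteasome genes inside gave -0.26 against 0.21 for 9 outside. The interferon response genes had medians of -0.32 over 2 members inside and -0.42 over 3 outside, and the 4 lysosomal genes, all outside, had a median of -0.17.

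Most listed stress-response genes of the segment stood against its direction. Of 7 listed members, 6 were above 0 in F5, with a median of 0.28. The exception was Zfp36, at -1.11. Of the genes below, Slc1a5 and Tshz3 are not in that list and were named for their high F5 values. Bbc3, the p53 target PUMA, stood at 7.92, 3.99 and 4.83 CPM in parental, 12.8, 10.7 and 11.1 in F5, 12.8, 11.3 and 11.7 in G5 and 18.3, 9.91 and 12.3 in H7. All clone libraries were above all parental ones, and it rose in G5 (edgeR adjusted p = 0.017) and H7 (edgeR adjusted p = 0.0055). Bbc3 and Ppp1r15a were also among the segment members named for high F5 values. Genes so named were picked with the parental libraries, so their G5 and H7 p-values are not independent of that choice. Slc1a5, a glutamine transporter, was at 157% in F5 and rose in G5 (0.69, edgeR adjusted p = 0.026) and H7 (1.01, edgeR adjusted p = 0.0025). Ppp1r15a, the GADD34 subunit of a stress phosphatase, was at 151%, 188% and 182% of parental in F5, G5 and H7. Tshz3, a zinc finger gene of the teashirt family, stood at 13.3, 13.5 and 9.09 CPM in parental, 25.7, 22.1 and 22.9 in F5, 27.6, 25.3 and 23.9 in G5 and 23.5, 22.5 and 24.8 in H7. The clone libraries did not overlap the parental ones.

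Outside the segment, 3 of the 4 members with the largest F5 values were above parental in every library of every clone. Nupr1, a stress-induced nuclear protein, was at 269%, 259% and 268% of parental in F5, G5 and H7, and Apobr, a lipoprotein receptor, at 204%, 227% and 230.5%. Bnip3, a mitophagy receptor induced by hypoxia, stood at 37.5, 35.5 and 29.6 CPM in parental, 83.9, 80.4 and 70.6 in F5, 72.1, 68.1 and 63.4 in G5 and 49.95, 45.9 and 44.2 in H7. It was highest in F5 and G5, which overlapped, and lower in H7. The fourth, Tenm4, overlapped parental in F5. The lowest named members there, Mrgprf, Mrvi1, Trim30d and Tpcn2, had parental libraries that spread widely, and Mrgprf ranged from 14.0 to 59.1 CPM among them. Its F5 values of 9.96, 20.5 and 13.5 overlapped that range.

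In G5 against parental, which the rule did not use but which shares its parental libraries with the other clone comparisons, 96 of 792 members were called, 64 lower and 32 higher (edgeR), beside 13.1% of all genes tested. Over the segment 53 were lower (11.1% of 479, beside 6.56% of all genes) and 7 higher (beside 6.54%), with a median log2 change of -0.12 and 354 members below 0. The distal members had a median of 0.032. Every G5 library was below every parental library in 123 segment members (25.7%, beside 13.3% of genes on the other autosomes), and above in 24 (5.01%, beside 15.7%). By TPM with limma (pseudocount 0.1), 36 members were lower and 43 higher, so the share of calls that were lower went from 66.7% to 45.6%. On that scale the other autosomes also shifted, to a median of 0.070, and the segment's median less theirs was -0.13 on both scales. A displacement of this size was not particular to the segment: the 693 genes of at least 4 CPM on chromosome 1 had a G5 median of -0.12, or -0.13 less the other autosomes, with 69.7% below 0 and 13.9% called lower. Chromosome 1 also stood at -0.11 in H7 and at -0.075 in F5. The count of 96 fell to 49 without G5 passage 7 and to 55 without G5 passage 9, and was 215 with the place in the order of passages as a block.

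The G5 bins of the segment ran from -0.25 (70 to 80 Mb) to -0.025 (60 to 70 Mb). Irgq, a GTPase-related gene, stood at 49.9, 55.8 and 53.1 CPM in parental, 27.6, 29.2 and 30.9 in F5, 36.3, 36.7 and 38.3 in G5 and 39.0, 38.1 and 39.1 in H7. It fell in G5 (-0.51 ± 0.065, edgeR adjusted p = 0.00065) and H7 (-0.45 ± 0.065, edgeR adjusted p = 0.00077), and the clones all lay below parental. Distal of the edge, Gprc5b, an orphan receptor, fell in G5 (-0.83, edgeR adjusted p = 0.00065).

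In H7 against parental, 107 members were called, 54 lower and 53 higher (edgeR), beside 19.6% of all genes tested. In the segment 38 were lower (7.93%, beside 9.92%) and 23 higher (4.80%, beside 9.64%). The segment's median was -0.048, the distal median 0.019 and that of the other autosomes 0.0004. Every H7 library was below every parental library in 84 segment members (17.5%, beside 17.2% on the other autosomes), and above in 53 (11.1%, beside 19%). The first share was near the background, and the second below it. The bins of the segment ran from -0.095 to 0.019. The count of 107 fell to 56 without H7 passage 7 and to 66 without H7 passage 8, and was 207 with the order of passages as a block.

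H7 differed in single genes. Ltbp4, a latent TGF-beta binding protein of elastic fibres, stood at 52.3, 60.8 and 48.9 CPM in parental, 68.7, 62.7 and 53.8 in F5, 64.6, 73.6 and 58.8 in G5 and 11.6, 8.25 and 9.01 in H7, and fell to 17.8% (-2.49 ± 0.15, edgeR adjusted p = 2.5e-06). Only the H7 libraries lay outside the range of the other lines. Cacng7, a membrane protein gene of the calcium channel gamma family at the proximal end, was at 59.6%, 70.8% and 50.2% of parental in F5, G5 and H7, lowest in H7 (edgeR adjusted p = 7.6e-05). Distal of the edge, Arl6ip1, an endoplasmic reticulum shaping protein, fell in H7 to 13.9% (-2.84, edgeR adjusted p = 1.5e-06), and the growth factor receptor Fgfr2 to 66.7% (-0.59, edgeR adjusted p = 6.1e-05). Fam53b and Dusp8, a MAP kinase phosphatase, rose there (1.10 and 1.49, edgeR adjusted p = 0.0005 and 0.00063).

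G5 and H7 were also compared directly, a contrast with neither F5 nor parental libraries. Of 792 members, 69 were called, 44 lower and 25 higher in G5 (edgeR), beside 17.4% of all genes tested. In the segment 33 were lower (6.89%, beside 8.51%) and 11 higher (2.30%, beside 8.88%), with a median of -0.078, and 344 of 479 members (71.8%) were below 0. The distal median was 0.011. Most segment members were thus slightly lower in G5 than in H7, and the shares called in either direction were below those of all genes. On the other autosomes 49.7% of genes were below 0. Larger displacements than the segment's were present on whole chromosomes. Chromosomes 15, 18 and 16 had medians of -0.40, -0.30 and -0.24, with 93.1%, 88.1% and 91.3% of genes below 0. The furthest the other way was chromosome 6, at 0.28. By TPM with limma, 19 members were lower and 34 higher, a share of 35.8% lower in place of 63.8%. The count of 69 became 42 and 37 without G5 passages 7 and 9, 36, 40 and 43 without H7 passages 7, 8 and 9, and 104 without parental passage 7. It was 149 with the order of passages as a block.

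Set side by side, the segment's medians against parental were -0.32 in F5, -0.12 in G5 and -0.048 in H7. By log2 change, 324 of 479 segment members (67.6%) were ordered F5 below G5 below H7, against 17.3% of distal members and 20.1% of genes on other autosomes. The choice of the segment by F5 fixes part of that order. It does not use G5 or H7, but it can still favour G5 below H7, because G5 was much closer to F5. Of all genes tested, 0.258% were called between F5 and G5, against 17.9% between F5 and H7. Against G5, F5 had a segment median of -0.19, with 454 of 479 members below 0. The 2 called, Eml2 and Grik5, were lower in F5 (0.418% of the segment, beside 0.068% lower, 0.19% higher and 0.258% in either direction of all genes tested). Against H7, the segment median of F5 was -0.28, with 154 members called lower and 5 higher, beside 8.49% and 9.45% of all genes tested, or 17.9% in either direction. Both contrasts use the F5 libraries that placed the segment and are given as description.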

How the data were processed

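Total RNA of 12 NIH3T3 libraries was sequenced after ribosomal RNA depletion with a stranded kit, per the labels' protocols. The authors deposited estimated counts per gene (not all whole) and TPM, each TPM column summing to 1000000. The build is GRCm38, per the submitters' processing notes. No aligner, counter or strand setting is given in the sources used here. Gene positions came from GENCODE M21, which matched 48435 of 48795 identifiers. Of the members, 205 overlap another member, and their reads may be split between them.

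Expected counts as deposited were rounded and fitted with edgeR 4.0.16 (TMM, filterByExpr, quasi-likelihood F-test, all 12 libraries, group only, residual df 8), and p-values were adjusted over all 14704 genes tested, with a call at adjusted p under 0.05. The biological coefficient of variation was 15.5%. CPM in the text are TMM-scaled. Segment edges are those of the interval of at least 20 members with the smallest sum of absolute deviations from 1 median inside and 1 outside. Scripts were tested on simulated data. Alternatives used DESeq2 1.42.0, limma 3.58.1 on log2(TPM + 0.1) and log2(TPM + 1), other filters and member levels, blocks by passage, other bins, and each library left out. No paper or batch label was used.

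The members and the gene lists were chosen with earlier results of these data known. Named genes followed a fixed rule: the 8 segment members highest in parental CPM, the 6 lowest and 6 highest in F5, 4 and 4 outside the segment, the 4 and 4 with the smallest p in G5 and H7, 3 and 3 in G5 against H7, 3 on each side of each edge, and up to 4 of each of 13 lists by parental CPM. Grik5, Gm3375, Gm45038, Crebzf, Ndufa3, Etfb, Picalm and 4632427E13Rik were named after their values were seen. Some genes that the rule names are not reported here. Same-passage libraries of G5 and H7 deviated together (correlations across genes of 0.33, 0.34 and 0.15), so passage pairs these clones. Same-passage libraries of parental and clone lines did not, but those at the same place in the order of passages did, weakly at the third place (0.40, 0.50 and 0.11 for F5, 0.47, 0.45 and 0.060 for G5, 0.43, 0.38 and 0.045 for H7). The labels do not say that this place marks a shared day or batch. The fit without a block is therefore the one reported, with the count under that block beside it. The permutation tests took libraries as unpaired, so the passage pairing of G5 and H7 was not used there.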

Additional observations from a re-analysis of the deposited data

Results flagged for a closer look

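In 6 members the change from parental differed between G5 and H7 by a test of the difference itself (the G5 against H7 contrast, edgeR with Benjamini-Hochberg adjustment). They are the 3 higher and 3 lower named members with the smallest adjusted p of that contrast. In the segment, the change of Ltbp4 in G5 less that in H7 was 2.77 on the log2 scale (adjusted p = 8.0e-07, edgeR), with H7 the lower. Distal of the segment, the difference was 2.26 for Arl6ip1 (edgeR adjusted p = 2.4e-06) and 0.71 for Fgfr2 (edgeR adjusted p = 1.2e-05), again with H7 the lower. Anpep differed by -4.29 (edgeR adjusted p = 0.0005) and Ntrk3 by -2.85 (edgeR adjusted p = 0.00071), both in the segment and lower in G5. Arhgef1, a guanine nucleotide exchange factor in the segment, differed by -0.50 (edgeR adjusted p = 0.00028): it fell in G5 (-0.29, edgeR adjusted p = 0.011) and rose in H7 (0.21, edgeR adjusted p = 0.032), with 93.3, 97.5 and 101 CPM in parental, 81.5, 78.5 and 78.8 in G5 and 116, 110.4 and 112 in H7. In F5 it stood at 66.5, 64.4 and 72.1 CPM.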

How the results depend on the processing

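The 25 results of single genes that were recomputed (Aebp1 and the genes named for the smallest p in G5, in H7 and between them) kept their direction and their call under all 21 alternatives run for each. Counts of called members were lower in fits on the 6 libraries of a comparison, which leave fewer residual degrees of freedom: F5 had 83, G5 18 and H7 52. With the place in the order of passages as replicate block F5 had 388, G5 215, H7 207 and the G5 to H7 contrast 149. The shares of all genes called in these alternative fits are not given. Whether the counts moved more than those of other genes can therefore not be read from them. With the passage number as replicate block they were 193, 96, 109 and 65, and the segment medians were -0.30 in F5 and -0.042 in H7. Under that block the 25 recomputed single genes kept their direction and their call. Leaving out 1 library at a time gave 145 to 247 calls in F5, 49 to 109 in G5, 56 to 120 in H7 and 36 to 104 in G5 against H7.

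The segment medians kept their sign in every alternative. In F5 the median was -0.33 with factors computed without chromosome 7, -0.29 and -0.27 by limma on TPM with pseudocounts 0.1 and 1, -0.30 without the filter, -0.30 over members of at least 10 CPM, and -0.33 to -0.30 with 1 library left out. In G5 it was -0.055 and -0.052 by the TPM fits, -0.10 over members of at least 10 CPM and -0.13 to -0.11 with 1 library left out. In H7 it was -0.038 in 6-library fits, -0.043 with DESeq2 size factors and in the DESeq2 test, -0.041 with the order of passages as replicate block, -0.045 without chromosome 7 in the factors, -0.046 by limma on TPM with pseudocount 1, -0.030 without the filter, -0.059 and -0.033 over members of at least 1 and 10 CPM, and -0.049 to -0.027 with 1 library left out. The factors without chromosome 7 in G5 and H7, the ratio to the distal members, the median deviation and sums without the 5 most abundant members were added after seeing the data.

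The run of lowered bins ended at 95 Mb with bins of 5 Mb and at 100 Mb with bins of 20 Mb, and at 90 Mb otherwise. With a threshold of -0.3 the longest run was the 4 bins from 50 to 90 Mb. The bins from 0 to 30 Mb also passed it, at -0.36, -0.32 and -0.34 less the other autosomes. Those from 30 to 50 Mb did not, at -0.24 and -0.27. The summed level of the segment in G5 was 0.070 above parental in TPM, a reversed sign, and -0.17 and -0.16 as the ratio to the distal members and as the difference of median deviations. In H7 it was -0.025 in CPM on column sums, 0.066 in TPM, -0.063 as the ratio and -0.067 as the difference of median deviations. With 1 library left out these sums ranged from -0.10 to -0.067 in G5 and from -0.019 to 0.016 in H7. The cause of these shifts was not tested. Each line had 3 libraries, and the coefficient of variation was 15.5%. In F5, 194 of 479 segment members (40.5%) were called lower, beside 7.37% of all genes tested. Since that contrast placed the segment, nothing is read from this count.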

Other observations

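By kind of segment gene, medians in F5 were below 0 in 3 of 4 classes. Protein-coding members (438) had a median of -0.32, and 13 other non-coding genes of -0.31. The 23 unspliced transcripts annotated as to be experimentally checked had -0.42, and the 5 pseudogenes stood the other way, at 0.18. Of these 23 unspliced transcripts, 18 lie inside a protein-coding member, and in 13 of 19 such pairs the inner transcript was lower in F5 than its host, with medians of -0.42 and -0.27. A transcript inside more than 1 host counts once for each. The inner transcripts also had the lower median in G5 (-0.16 against 0.014 for the hosts) and in H7 (-0.11 against -0.056). Reads from an intron of the host and from such a transcript cannot be told apart where both lie on 1 strand. Of the inner transcripts, 4 lie in Picalm, a clathrin assembly gene, and stood between -0.58 and -0.42 in F5, against -0.27 for Picalm.

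By parental TPM, the 160 members with the highest levels (37.2 TPM and above) had a median of -0.27, the next 159 one of -0.35 and the lowest 160 one of -0.35. By the length of the gene on the chromosome, the medians were -0.31 in the 160 longest, -0.32 in the next 159 and -0.32 in the 160 shortest, and by strand -0.32 on plus and -0.31 on minus.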
